A study of Mus musculus with 4 samples.

Results

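The MYC network transcription factors are a family of basic helix-loop-helix leucine zipper proteins that bind DNA in pairs. The 10 genes described here were chosen by symbol or older synonym, as Myc, Mycn, Mycl, Max, Mxd1, Mxd3, Mxd4, Mxi1, Mnt and Mlx, out of 19057 named genes on the array, and 17 probes measured them. Every probe was matched through its current symbol or gene identifier, and older synonyms added 0 probes.

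In this network the MYC proteins pair with MAX and activate genes of growth, ribosome making and the cell cycle. The MXD proteins, MXI1 and MNT also pair with MAX, bind the same E-box sequence and repress through SIN3 and histone deacetylases, so the balance of MYC and MXD partners is a known switch between proliferation and differentiation. MLX is a second shared partner, which pairs with some of the MXD proteins, with MNT, and with the nutrient-sensing factors MLXIP and MLXIPL. N-Myc, the product of Mycn, is known for its role in the expansion of neural progenitors in the embryonic mouse brain.

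The samples are neural stem and progenitor cells (NSPC), profiled on Illumina bead arrays, from the neocortex of C57BL/6 mice of a Cre/LoxP conditional transgenic line, grown as floating neurospheres in medium with 20 ng/ml EGF and 20 ng/ml FGF2 and harvested on day 5. One group is labelled as overexpressing Bmi1, a polycomb repressor that sustains self-renewal of stem cells, and the other as transgenic control, with 2 biological replicates and 1 array per replicate in each. The Cre driver, the alleles carried by the controls, the age of the mice and any pooling of animals remain not given in the sources used here. The contrast asks which transcripts differ with Bmi1 overexpression.

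The direction of the contrast is not settled. The scanner table heads 2 arrays as controls and 2 as Bmi1 cells, and the processed table of the same arrays names these pairs the other way round. Each processed column filed under a control sample matched an array headed as Bmi1 at a Spearman correlation of 1.00 over probes, with at most 0.898 for any other array, and the columns filed under Bmi1 matched the arrays headed as controls. Arrays are called here by the scanner headers, as control arrays 1 and 2 and as the first and the second Bmi1-labelled array, and every sign below turns if the processed table is right. The Bmi1 probe did not separate the groups, with 79.4 and 62.7 for the controls against 53.3 and 77.7 on the Bmi1-labelled arrays.

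Between 16495 and 18242 of 45259 probes were detected per array, and the second Bmi1-labelled array was the dimmest, with a mean signal of 191 against 215 to 233 on the others. Control array 1 stood apart in Xist, the RNA that coats the silenced X chromosome, with signals of 114.7 to 970.5 over 4 probes, whereas the other arrays reached at most 8.4. For Eif2s3y, which lies on the Y chromosome, the reverse held, with at most 6.2 on this array against 204.6 to 239.6 elsewhere. Of 10 progenitor markers 8 were measured, among them Sox2, Sox9, Vim and Nes, while Pax6 was detected on 0 arrays and Prom1 on 1. Of 8 astrocyte markers 7 were measured and of 8 oligodendrocyte lineage markers 6, whereas none of the 5 endothelial and 2 of the 7 microglial markers were measured, and of 8 neuronal markers 5 were measured, Dcx, Rbfox3, Map2, Syt1 and Gad1, while Tubb3, Snap25 and Slc17a7 were detected on 0 arrays.

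Since these factors recognise the E-box CACGTG, the start-site windows of their own genes are shown where they hold it. RefSeq windows on GRCm38.p6, from 250 bases before to 50 bases after an annotated start, were at hand for 9 of the 10 genes (11 windows), and Myc was not matched. CACGTG, which reads the same on both strands, lay in the windows of 4 of these 9 genes, Mxd4, Mnt, Mlx and Max, and in those of 8.09% of all 27025 genes in the table (7.15% of windows). The stretches below run 5′ to 3′ on the strand of the gene, with the E-box in capitals.
Mxd4, chr5:34187897-34187956, minus strand: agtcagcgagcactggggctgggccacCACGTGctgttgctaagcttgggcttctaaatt
Mnt, chr11:74830790-74830817, plus strand: cccacccaagcCACGTGtgcgcgcgcgg
Mlx, chr11:101087239-101087266, plus strand: gtgggttggatCACGTGactgagcctcg
Max, chr12:76962246-76962273, minus strand: accccggcgcggtgagcccggtCACGTG
Counted from the start that each window uses, the E-box begins 219 bases before it in Mxd4, 123 in Mnt, 40 in Mlx and 3 in Max, where it spans that start. The start is the outer end of the gene as given below for Mxd4, but lies 118 bases inside the gene for Mnt, 583 for Mlx and 75 for Max, so the E-boxes of Mlx and Max fall within the annotated extent of their genes and that of Mnt meets its outer end. The related lettering CACGCG, searched on both strands, was found in 1 of the 9 genes (Mycl, 20 bases before the start) against 10.5% of all genes, and CACATG in 1 (Mxi1) against 15.9%. These are matches of letters and not measured binding sites.

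Of the 17 probes, 10 were detected (detection p under 0.05) on at least 2 arrays, and through them 8 of the 10 genes were tested, while Mycn and Mnt were not. Tests used limma over all 12809 features, with each gene represented by its brightest detected probe and log2 differences given as labelled Bmi1 minus control. None of the 8 genes passed at an adjusted p of 0.05, where 0% of all features passed. At an unadjusted p under 0.05 there was 1, Myc of 8 members, against 22.0% of all features. With 1 array left out the count was 0 or 1, and the gene was then Mycl (-0.80 without control array 2) or Mxd4 (0.58 without the second Bmi1-labelled array). The groups did not overlap for 2 of 8 members, Myc and Mxd3, against 54.8% of all features. By sign, 5 members were higher and 3 lower in the Bmi1-labelled arrays.

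**Figure D1:**
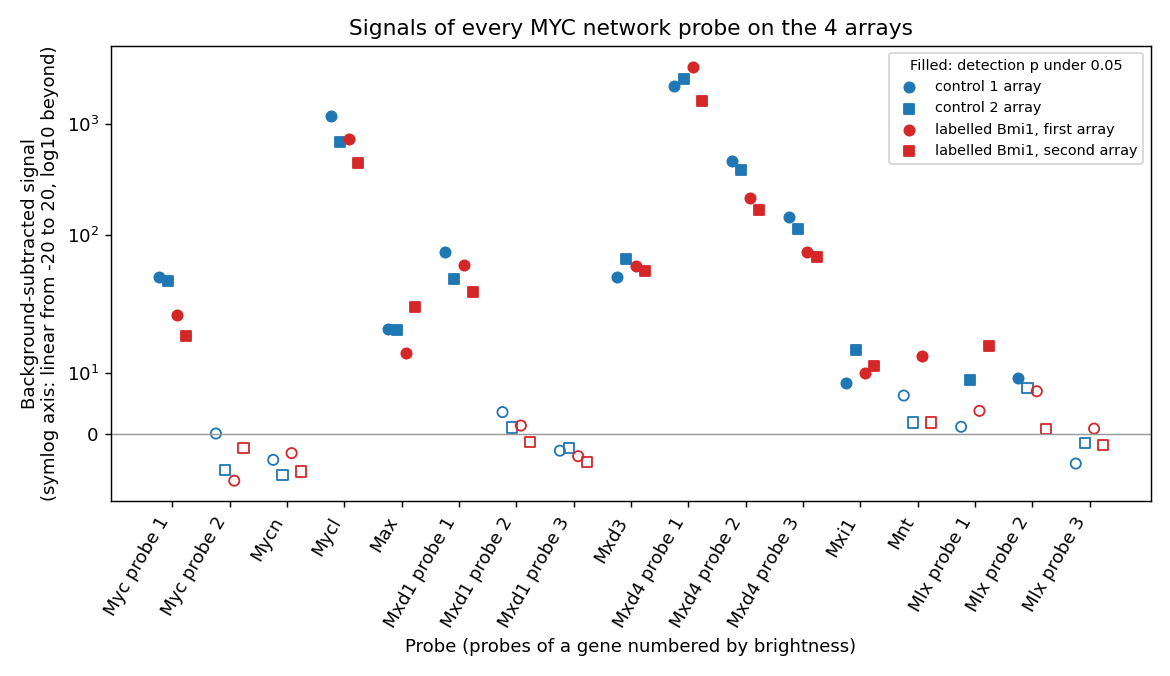
Background-subtracted signal of each of the 17 MYC network probes on the 4 arrays, on a symmetric log axis that is linear between -20 and 20; filled points have a detection p under 0.05. Mycl and the Mxd4 probes stand well above background on every array, while the Mycn probe stays below 0 on all 4.

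Myc (chromosome 15, 61985341 to 61990361, GRCm38.p6) encodes c-Myc, the broadly acting activator of growth genes. Myc had the smallest p among the members when each gene was represented by its brightest detected probe. Its brighter probe, ILMN_2623526, gave signals of 41.6 and 37.6 on control arrays 1 and 2 and 19.5 and 16.1 on the first and the second Bmi1-labelled array. Both control arrays lay above both Bmi1-labelled arrays, although all 4 signals were dim. On the normalized log2 scale the means were 5.66 ± 0.12 in the controls and 5.16 ± 0.01 in the Bmi1-labelled arrays (SD, n = 2 each), a difference of -0.49 (SE 0.19, limma adjusted p = 0.204). The gap between the group means exceeded the gaps within the groups, which were 0.17 in the controls and 0.02 in the other pair. On the linear signals, before the offset of 16 and normalization between arrays, the mean of the controls was 2.22 times that of the Bmi1-labelled arrays.

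Leaving out any 1 array kept the sign of the Myc difference, between -0.58 without control array 2 and -0.41 without control array 1. With all arrays its unadjusted p was 0.0379 in limma, and without each array in turn it was 0.0700 to 0.203, so the unadjusted call needed all 4 arrays. The other Myc probe, ILMN_1231123, was not detected on any array, with signals from -7.6 to 0.1, so the difference rests on 1 probe.

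Mycn (chromosome 12, 12936093 to 12941836), the progenitor form of the MYC proteins, was below background. Its 1 probe gave -4.2 and -6.7 on the controls and -3.1 and -6.1 on the Bmi1-labelled arrays, with detection p-values of 0.739 to 0.936. No level of Mycn was measurable in either group with this probe, and no difference was tested. The sources used here do not give the position of the probes in their transcripts, and a dark probe does not show that the transcript is absent.

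Mycl (chromosome 4, 122995588 to 123002490) encodes L-Myc, a weaker transforming member of the MYC proteins that is active in some differentiating tissues. Its probe was bright, with signals of 1187.2 and 688.2 on control arrays 1 and 2 and 740.3 and 449.9 on the first and the second Bmi1-labelled array. Control array 1 was the highest, control array 2 lay between the Bmi1-labelled arrays, and the groups overlapped. The log2 means were 9.73 ± 0.59 in the controls and 9.34 ± 0.32 in the Bmi1-labelled arrays (SD, n = 2 each). The difference of -0.39 (SE 0.31, adjusted p = 0.501) was smaller than the gap of 0.83 between the control arrays. Dropping control array 2 gave -0.80 and dropping control array 1 gave 0.02, so its size and sign hung on control array 1.

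Max (chromosome 12, 76937269 to 76962323), the obligate partner of the MYC proteins, was dim but detected on all arrays. Signals were 17.1 and 17.0 on the controls and 13.2 and 21.9 on the Bmi1-labelled arrays. The control arrays lay between the others, and the log2 difference of 0.19 (SE 0.24, adjusted p = 0.679) was smaller than the gap of 0.57 between the Bmi1-labelled arrays. Leaving out the first of these gave 0.48, and leaving out the second gave -0.09.

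**Figure D2:**
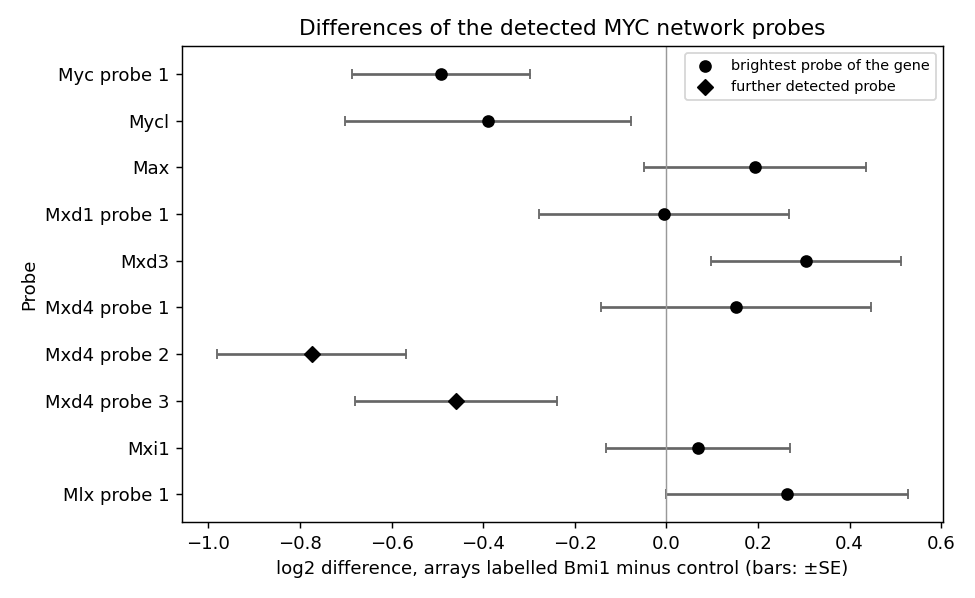
Log2 difference (labelled Bmi1 minus control, all 4 arrays) with its standard error for the 10 detected MYC network probes; circles mark the brightest probe of a gene and diamonds the further probes of Mxd4. The Myc probe and 2 of the 3 Mxd4 probes lie on the lower side, while the brightest Mxd4 probe lies on the other at 0.15.

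Mxd4 (chromosome 5, 34176580 to 34187710) encodes MAD4, a MAX partner that represses E-box genes and is known from differentiating cells, and it was the member whose probes disagreed. Probe ILMN_2760417, annotated to the RefSeq transcript, gave signals of 465.3 and 385.3 on control arrays 1 and 2 and 214.7 and 167.1 on the first and the second Bmi1-labelled array. Both Bmi1-labelled arrays lay below both controls. Its log2 means were 8.63 ± 0.22 and 7.85 ± 0.04 (SD, n = 2 each), a difference of -0.77 (SE 0.21). In the fit over all 18237 detected probes its adjusted p was 0.140 and its unadjusted p 0.00668. The unadjusted p was 0.0712 when control array 1 was left out and 0.0128 to 0.0225 for the other arrays, so the unadjusted call was lost in the former case.

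Probe ILMN_2839886, annotated to the same transcript, pointed the same way. It gave 144.2 and 111.1 on the controls and 69.3 and 62.9 on the Bmi1-labelled arrays, again without overlap, and stood at -0.46 (SE 0.22, adjusted p = 0.285). The brightest probe, ILMN_1243249, carries the gene's name but no transcript accession in the array annotation. It gave 2236.6 and 2552.3 on the controls and 3331.7 and 1641.5 on the Bmi1-labelled arrays, so the latter lay on either side of the controls. Its difference was 0.15 (SE 0.29, adjusted p = 0.802), which became -0.27 when the first Bmi1-labelled array was left out and 0.58 when the second was.

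Before normalization between arrays, the mean linear signals of the probes annotated to the transcript were 2.23 and 1.93 times as high in the controls. For the brightest probe this ratio was 0.963. Probe ILMN_2760417 kept its sign with each array left out, from -0.93 without control array 2 to -0.62 without control array 1, and so did ILMN_2839886, from -0.66 to -0.26 for the same arrays. Probes of opposite sign were common on the array, whereas a spread as wide as that of Mxd4 was less so. Of 3763 genes with at least 2 detected probes, 46.0% had probes of opposite sign, and 11.8% had probe differences that spread as widely as the 0.93 of Mxd4 or more. Counted by probe, 2 of the 10 detected member probes had an unadjusted p under 0.05 (1 of Myc and 1 of Mxd4), against 20.8% of all detected probes, and 4 of 10 did not overlap between groups, against 53.6%.

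**Figure D3:**
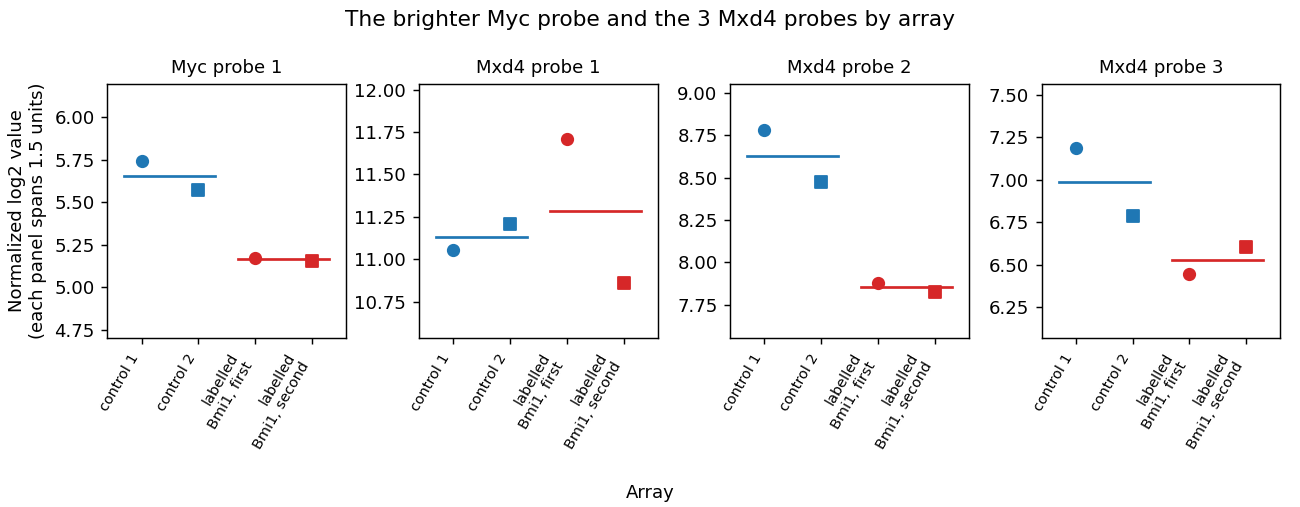
Normalized log2 values of the brighter Myc probe and of the 3 Mxd4 probes on each array, with the group means as lines; each panel spans 1.5 log2 units. The Myc probe and Mxd4 probes 2 and 3 are lower on both Bmi1-labelled arrays than on both controls, whereas on Mxd4 probe 1 these arrays lie on either side of the controls.

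Mxd3 (chromosome 13, 55325170 to 55329900) encodes MAD3, the MXD protein known from dividing progenitors rather than differentiated cells. Its probe gave 41.6 and 59.4 on the controls and 52.3 and 47.0 on the Bmi1-labelled arrays, and these signals overlapped. After quantile normalization the Bmi1-labelled arrays, at 6.12 and 6.27, lay above the controls, at 5.74 and 6.04. The difference was 0.31 (SE 0.21, adjusted p = 0.429), close to the gap of 0.29 between the control arrays. It was 0.16 with control array 1 left out and 0.45 with control array 2 left out. With median scaling it was -0.0060, so the groups separated in Mxd3 after quantile normalization but not in the scanned signals.

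Mxd1 (chromosome 6, 86647044 to 86669234), the founding member of the MXD repressors and known from terminal differentiation, stood near 0. Its detected probe gave 69.0 and 39.9 on the controls and 53.1 and 30.0 on the Bmi1-labelled arrays, alternating between the groups. The difference was -0.0048 (SE 0.27, adjusted p = 0.994), with 0.65 between the control arrays. Dropping control array 1 gave 0.32, and dropping control array 2 gave -0.33. The other 2 Mxd1 probes were not detected on any array, at -4.5 to 3.6.

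Mxi1 (chromosome 19, 53310128 to 53373293), a further MAX-binding antagonist of MYC, lay just above background. Signals were 8.3 and 13.7 on the controls and 9.9 and 11.1 on the Bmi1-labelled arrays, with detection p-values of 0.00107 to 0.0353. The Bmi1-labelled arrays lay between the controls, and the difference was 0.07 (SE 0.20, adjusted p = 0.875).

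Mnt (chromosome 11, 74830806 to 74845725) encodes a widely expressed MAX partner that counters MYC in cycling and resting cells alike. Its probe gave 6.3 and 1.9 on the controls and 12.7 and 1.9 on the Bmi1-labelled arrays, and passed detection only on the first of the latter. It was not tested.

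Mlx (chromosome 11, 101086707 to 101092207), the alternative partner, was measured at the edge of detection. Its tested probe gave 1.2 and 8.9 on the controls and 3.8 and 14.4 on the Bmi1-labelled arrays, detected on control array 2 and on the second Bmi1-labelled array. The difference was 0.26 (SE 0.26, adjusted p = 0.599), below the gap of 0.63 between the Bmi1-labelled arrays. Leaving out the first of these gave 0.58 and leaving out the second gave -0.05. A further Mlx probe was detected on control array 1 alone, at 9.2, and the third on none.

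Of the remaining genes of the network, Mga and Mlxipl lay near background and Mlxip above it. Mga, a large factor that pairs with MAX and carries a T-box domain as well, gave 30.0 and -0.4 on the controls and 1.1 and 21.9 on the Bmi1-labelled arrays by its tested probe. High and low arrays thus fell in each group, and the difference was 0.03 (SE 0.47, adjusted p = 0.974). Mlxip, the MLX partner MondoA, stood at -0.21 (SE 0.28, adjusted p = 0.695) by the 1 of its 5 probes that was detected, with signals of 58.9 and 52.1 on the controls and 54.4 and 21.3 on the Bmi1-labelled arrays. Mlxipl, the carbohydrate-responsive factor ChREBP, gave 13.5 and 13.8 on the controls and 14.7 and 5.5 on the others, and stood at -0.11 (SE 0.22, adjusted p = 0.823). Both overlapped between the groups.

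**Figure D4:**
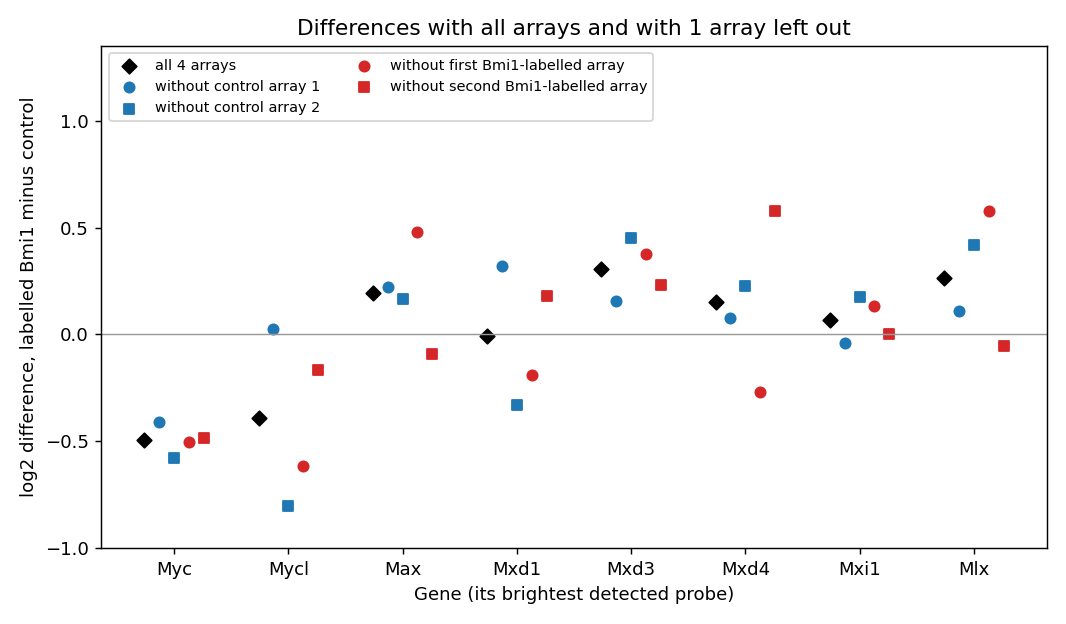
Log2 difference (labelled Bmi1 minus control) of the 8 tested MYC network genes by their brightest detected probe, with all 4 arrays (black) and with each array left out in turn. The 5 Myc values lie between -0.58 and -0.41, and the 5 Mxd3 values all lie above 0, whereas the values of the 6 other genes fall on both sides of 0.

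Proteins that work with the MYC and MXD factors lay on both sides of 0. Of 20 listed cofactors 15 were measured, 10 higher and 5 lower in the Bmi1-labelled arrays, with a median log2 difference of 0.18 against 0.01 over all features. That median was 0.07 once control array 1 was dropped and 0.11 once the first Bmi1-labelled array was. The unadjusted p was under 0.05 for 2 higher (12.2% of all features in that direction) and 3 lower genes (9.79%), and 0 passed the adjusted test. Zbtb17, which encodes the MYC-binding repressor partner MIZ1, stood at 0.81 (SE 0.20, adjusted p = 0.132), with signals of 786.4 and 933 on the controls and 1332.6 and 1259.9 on the Bmi1-labelled arrays. Actl6a, an actin-related subunit of the TIP60 complex, was at 0.88 (adjusted p = 0.142).

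Ruvbl2 and Kat2a lay on the lower side. Ruvbl2, an ATPase of the TIP60 complex, gave 662.5 and 717 on the controls and 380.8 and 224.3 on the Bmi1-labelled arrays, and stood at -0.91 (SE 0.22, adjusted p = 0.132). Kat2a, the acetyltransferase GCN5 recruited by MYC through TRRAP, was at -0.82 (SE 0.21, adjusted p = 0.133), with signals of 170.4 and 154.3 against 79.3 and 50.8. The groups did not overlap for either gene. The SIN3 scaffolds used by the MXD proteins were near 0, with Sin3a at -0.07 and Sin3b at 0.05.

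Regulators of MYC protein stability were evenly split. Of 18 listed genes 16 were measured, 8 higher and 8 lower, with a median of -0.0058 (0.069 with control array 1 dropped, 0.15 with the first Bmi1-labelled array dropped), and 3 had an unadjusted p under 0.05 (18.8%, against 22.0% of all features). Aurka, a mitotic kinase that shields N-Myc from degradation, stood at 1.16 (SE 0.42, adjusted p = 0.181), with signals of 245.9 and 661.1 on the controls and 734.8 and 819.9 on the Bmi1-labelled arrays. The deubiquitinases Usp36 at -0.62 (adjusted p = 0.155) and Usp7 at -0.64 (adjusted p = 0.163) were on the lower side, and further probes of these stood closer to 0, at -0.05 for Usp36 and at -0.09 and 0.13 for Usp7. Fbxl14 was at 0.42 (adjusted p = 0.258).

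Known targets of MYC in ribosome making and metabolism showed no common direction. Of 40 listed genes 32 were measured, 13 higher and 19 lower in the Bmi1-labelled arrays, with a median of -0.02, which was 0.16 with the first Bmi1-labelled array dropped and 0.02 with control array 1 dropped. At an unadjusted p under 0.05 there were 4 higher and 4 lower, together 25.0% of the list against 22.0% of all features, and 0 passed the adjusted test. Bop1, a factor of large ribosomal subunit assembly, stood at 1.05 (SE 0.20, adjusted p = 0.132), with signals of 109 and 133.9 on the controls and 223.9 and 191.9 on the Bmi1-labelled arrays. Noc4l, of small subunit assembly, was at 0.89 (adjusted p = 0.132), but its other detected probe was at -0.28.

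On the lower side were Ldha, the lactate dehydrogenase of glycolysis, at -0.68 (SE 0.20, adjusted p = 0.140), and Cdk4, the kinase of G1 cyclins, at -0.78 (adjusted p = 0.158). The other detected Cdk4 probe stood at 1.63, in the opposite direction. Ornithine decarboxylase (Odc1), a classical MYC target, gave 1518.2 and 1689.1 on the controls and 1565.9 and 2244.9 on the Bmi1-labelled arrays, a difference of 0.42 (SE 0.26, adjusted p = 0.390). Nucleophosmin (Npm1) was at -0.0014 (adjusted p = 0.998).

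Proliferation and glial markers also varied between the arrays. The 7 measured proliferation markers were all on the higher side in the Bmi1-labelled arrays, with a median of 0.48. Of these, 2 had an unadjusted p under 0.05 (28.6%, against 22.0% of all features), and 0 passed the adjusted test. Plk1 was at 1.95 (SE 0.39, adjusted p = 0.132), with signals of 316.7 and 569.8 on the controls and 1063.3 and 1923.3 on the Bmi1-labelled arrays. Mcm5 was at 0.84 (adjusted p = 0.175), Top2a at 0.69 (adjusted p = 0.256) and Mcm2 at 0.48 (adjusted p = 0.396). Between the groups 3 of the 7 did not overlap, against 54.8% of all features. Dropping control array 1 gave a median of 0.21 and dropping control array 2 gave 0.87, while it was 0.84 when the first Bmi1-labelled array was left out and 0.17 when the second was. Their median deviation from the mean of each gene was -0.66 and -0.03 on control arrays 1 and 2, and -0.04 and 0.60 on the first and the second Bmi1-labelled array. Their summed signals were 2247 and 3985 on the controls and 4038 and 5674 on the Bmi1-labelled arrays. The 6 oligodendrocyte lineage markers had medians of 0.46, 0.00, -0.24 and -0.43 in the same array order. Their summed signals ran from 14871 on the second Bmi1-labelled array to 19970 on control array 1. Olig1 alone gave 13412.6 to 14464.3 and made up most of these sums. The 7 astrocyte markers had medians of 0.31, 0.17, -0.31 and -0.22. Their summed signals ran from 27228 on the first Bmi1-labelled array to 32842 on control array 2. Slc1a3 alone gave 15381.3 to 20098.2, the largest part of these sums. Mycl was highest on control array 1, where the proliferation markers were lowest and both sets of glial markers were highest by median. By summed signal the astrocyte markers were highest on control array 2. The brighter Myc probe and 2 Mxd4 probes were higher on both control arrays, as 4 of the 7 astrocyte markers were. These markers were Gfap at -2.74, Aqp4 at -1.21, Aldoc at -0.75 and Aldh1l1 at -0.60. Further detected probes stood at -0.996 for Gfap and -0.08 for Aldh1l1. Slc1a3, at 0.33, was higher on both Bmi1-labelled arrays, and Slc1a2 and Gja1 overlapped. Of the 6 oligodendrocyte lineage markers, 3 were higher on both control arrays and 2 on both Bmi1-labelled arrays (Olig1 at 0.09 and Pdgfra at 0.24). In either direction 5 of the 7 astrocyte and 5 of the 6 oligodendrocyte lineage markers did not overlap, against 54.8% of all features. Control array 1 was also the array that stood apart in Xist and Eif2s3y, whose part in the Mycl values was not tested. Whether the makeup of the cultures has a part in these values was not tested, and fewer cells of a type and less RNA per cell cannot be told apart in such samples.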

How the data were processed

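Per the file headers, the deposited scanner table holds, for each probe on 4 arrays, its signal intensity and its detection p-value. The deposited detection p-value column rises with the signal and was read as 1 minus p. The deposited intensity values were already background-subtracted, with 31.2 to 33.9% of an array's values at or below 0. The authors' processed table holds log2 values, for which lumi was used per the submitters' processing notes; version, transform and background step remain not given in the sources used here. Both remaining arrays are headed alike, so the Bmi1-labelled arrays carry no replicate number of their own.

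Rows without a probe identifier (22) were left out. Signals were normalized with neqc of limma 3.58.1 (R 4.3.3; offset 16, quantile), probes with a detection p under 0.05 on at least 2 arrays were kept (18237), and each gene was represented by its brightest probe (12809 features). The annotation gives 1 symbol for 34872 probes, several for 18 and none for 10369; symbols were updated through gene identifiers (34794). Groups were compared with lmFit and eBayes, two-sided, with Benjamini-Hochberg adjustment; the script was tested on simulated data. Further probes come from a fit over all kept probes. Promoter windows are from RefSeq.

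Named are the members, the 3 other network genes, up to 4 genes per list by smallest unadjusted p, and Bmi1. Sin3a, Sin3b, Odc1 and Npm1 were named after their values were seen. Of the cell type markers, those named were picked by their detection or by how their groups fell. Members and lists were chosen with earlier results of these data known. Nothing in the labels says that replicates shared or did not share a culture day, so p-values measure only the spread between these samples, and 2 arrays per group limit the precision. No slide or scan date is given, so no batch was tested.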

Additional observations from a re-analysis of the deposited data

How the results depend on the processing

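No direction is settled, since the deposited tables name the groups oppositely. In the processed table with its own names the differences were 0.28 for Myc, 0.37 for Mycl, -0.11 for Max, 0.0079 for Mxd1, -0.21 for Mxd3, -0.15 for Mxd4, -0.035 for Mxi1 and -0.15 for Mlx, and 0.70 and 0.36 for the further Mxd4 probes. Under either naming of its columns 0 members had an unadjusted p under 0.05, and testing every detected probe separately gave 2. The labels' replicate numbers do not state a pairing. In the processed table same-numbered samples tended only weakly to deviate in opposite directions (correlation -0.20 over features). With a replicate block 2534 features and 0 members had an unadjusted p under 0.05. With the numbers crossed, an alternative chosen after seeing the data, these counts were 3198 and 0. Under both blocks the member differences were those without a block. Median scaling over all probes moved the median over all features to -0.20 and left 16.9% of 2987 unadjusted calls higher, against 55.5% of 2820. There Mxd3 was at -0.0060, Mxd4 at -0.029 and Mxi1 at -0.020, each above that shift. With this scaling 1 member did not overlap between groups. The share of all features without overlap is not given for median scaling, nor for the fits with 1 array left out. Member counts without overlap in these settings therefore have no share to be read against, and no conclusion is drawn from them. Leaving out 1 array gave 0 to 5 features past the adjusted threshold and 1080 to 3535 past the unadjusted one, the lowest without control array 1 (1431 without the second Bmi1-labelled array), with 0 to 1 members past the latter and 3 to 7 without overlap, which a lone array makes easier. The differences then ranged from -0.80 to 0.024 for Mycl, -0.092 to 0.48 for Max, -0.33 to 0.32 for Mxd1, 0.16 to 0.45 for Mxd3, -0.27 to 0.58 for Mxd4, -0.040 to 0.18 for Mxi1 and -0.052 to 0.58 for Mlx. The cause was not tested. With the filter at a detection p of 0.01 on every array Mxi1 and Mlx were not measured. Signals near background limit Max, Mxi1, Mlx and Myc.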
